A study of Rattus norvegicus with 4 samples.

Results

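The fatty acid synthesis and desaturation genes comprise 10 genes on 14 probe sets, out of 10412 genes named on the array through 12789 probe sets. They encode enzymes that make, lengthen and desaturate fatty acids in liver, and the transcription factor that drives many of them. Members were taken by gene symbol alone, with older symbols counted, and every probe set annotated to 1 of these symbols was kept. The 4 livers came from untreated male Sprague-Dawley rats between 10 and 12 weeks of age with free access to feed and water, an outbred laboratory strain, and each rat had its own Affymetrix 3' expression array. All 4 formed 1 control group, and no agent, genotype or second group was measured. The 4 animals are called rats 1 to 4 after their replicate numbers. No array was repeated, so a difference between rats cannot be told apart from a difference between their arrays.

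Liver builds fatty acids from surplus carbohydrate in the cytosol. Citrate leaves the mitochondrion and is cleaved to acetyl-CoA, acetyl-CoA is carboxylated to malonyl-CoA, and fatty acid synthase joins these units into palmitate with reducing power from NADPH. Elongases and desaturases then turn palmitate into longer and unsaturated chains, and a separate pair of desaturases processes the essential fatty acids of the diet. Insulin and sterol signals control transcription of the pathway through sterol regulatory element-binding protein 1 (SREBP-1), and glucose acts through ChREBP, encoded by Mlxipl.

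Values are log2 signals as deposited, where 1 unit is a doubling. How bright a probe set is depends on its own probes, so levels are compared between rats within a probe set and not between genes. Where a gene had several, the brightest on average was used. Background was set at a log2 value of 8.78, the 95th percentile of 88 probe sets of 67 genes restricted to brain, muscle, testis or eye. That level rests on few probe sets: without Myh1, a skeletal muscle myosin with 4 probe sets at 10.04 to 11.49, it was 8.23. Setting members against this level compares signals of different probe sets and describes signal, not transcript amount. Of all 15923 probe sets, 43.5% varied by no more than 0.001 across the 4 arrays. These flat probe sets carry no information on the animals.

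The tissue label was checked against marker genes. All 8 hepatocyte markers were above background, while 0 of 5 measured markers of fat cells, which also run this pathway, were. The brightest fat cell marker was Cfd at 8.48, and leptin (Lep) was at 7.79 and perilipin (Plin1) at 7.67, all flat. At the level of 8.23 set without Myh1, Cfd lies above background, so the fat cell count depends on that level. At 8.78, Kupffer cell markers were above background for 5 of 5 genes, stellate cell markers for 1 of 8, endothelial markers for 2 of 5, bile duct markers for 0 of 4 and blood cell markers for 1 of 4. In such whole-tissue RNA, fewer cells of a type and less RNA per cell cannot be told apart.

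Promoter sequence is shown for the members that differed most between rats, Scd, Srebf1 and Acss2, and for Fads1, which shared its lowest rat with Acss2. Fads2 shared that rat too, and its window is not printed. Each line is the 250 bases before an annotated transcription start, from RefSeq on GRCr8, read 5′ to 3′ along the gene. RefSeq promoters were matched for 7 of the 10 members, with 8 starts, since Srebf1 has 2. Capitals mark the letters searched, on both strands: the sterol regulatory element TCACNCCAC, the inverted CCAAT box spelled ATTGG, the E-box spelled CACGTG, the GC box spelled GGGCGG, the TATA box spelled TATAAA, and the stretch TCACCCGAG, which was added after the sequences were read. No 2 of these letter strings contain one another.
Srebf1, start further downstream (chr10:45519011-45519260, minus strand): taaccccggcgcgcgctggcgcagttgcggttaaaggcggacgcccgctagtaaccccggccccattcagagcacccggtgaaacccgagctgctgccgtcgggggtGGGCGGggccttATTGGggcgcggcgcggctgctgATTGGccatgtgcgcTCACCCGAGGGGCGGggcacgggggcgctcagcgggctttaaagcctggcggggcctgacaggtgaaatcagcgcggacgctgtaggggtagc
Srebf1, start further upstream (chr10:45529165-45529414, minus strand): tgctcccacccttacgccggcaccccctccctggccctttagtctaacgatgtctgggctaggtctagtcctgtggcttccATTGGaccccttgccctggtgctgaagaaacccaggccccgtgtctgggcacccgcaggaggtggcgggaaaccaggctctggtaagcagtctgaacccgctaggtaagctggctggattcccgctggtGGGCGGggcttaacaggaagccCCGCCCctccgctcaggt
Acss2 (chr3:164464453-164464702, plus strand): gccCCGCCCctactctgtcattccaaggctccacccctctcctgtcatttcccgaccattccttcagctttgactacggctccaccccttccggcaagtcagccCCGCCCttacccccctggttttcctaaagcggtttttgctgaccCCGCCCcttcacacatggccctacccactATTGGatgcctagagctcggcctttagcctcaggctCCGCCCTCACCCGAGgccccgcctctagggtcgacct
Scd (chr1:253231732-253231981, minus strand): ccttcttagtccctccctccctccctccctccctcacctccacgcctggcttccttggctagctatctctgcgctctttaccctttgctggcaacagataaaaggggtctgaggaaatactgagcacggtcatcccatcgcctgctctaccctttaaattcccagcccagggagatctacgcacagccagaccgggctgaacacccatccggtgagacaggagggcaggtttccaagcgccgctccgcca
Fads1 (chr1:216252442-216252691, plus strand): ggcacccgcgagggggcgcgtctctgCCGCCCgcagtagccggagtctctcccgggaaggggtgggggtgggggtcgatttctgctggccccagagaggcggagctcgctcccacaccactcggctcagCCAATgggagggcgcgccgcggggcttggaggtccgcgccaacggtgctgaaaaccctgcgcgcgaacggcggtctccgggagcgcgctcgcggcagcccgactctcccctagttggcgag

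The GC box was present in 7 of the 8 windows of the members, against 30.5% of all 33469 RefSeq promoter windows of this length, and the inverted CCAAT box in 5 of 8, against 34%. Members' windows were rich in G and C, at 58.8% to 83.2%, against a median of 51.2% in all windows, and the GC box is made of these bases. The sterol regulatory element spelled TCACNCCAC, the E-box and the TATA box were in 0 of 8, against 0.974%, 5.59% and 12.9% of all windows. Only these exact spellings were searched, so 0 of 8 does not mean that such an element in another spelling is absent. None of the letters searched lay in the Scd window. The Acss2 window and that of the Srebf1 start further downstream share the stretch CTCACCCGAGG, present in 3 of all windows, and its core TCACCCGAG in 0.0866%. The shared core ends next to a GC box in Srebf1, and in Acss2 it begins next to one. Other pairs of members share stretches of 11 to 13 bases too, among them Acly and Me1 with 13. A match describes these letters in this window and nothing more.

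Of the 10 members, 8 gave a signal above background, against 27.3% of all named genes. Without Myh1 in the background list, 9 of 10 lay above it, against 51.2% of all named genes. Members just inside and just outside the level were Acss2, 0.72 above it, and Me1, 0.17 below it. Me1 and Elovl6 were the members below it.

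**Figure D1:**
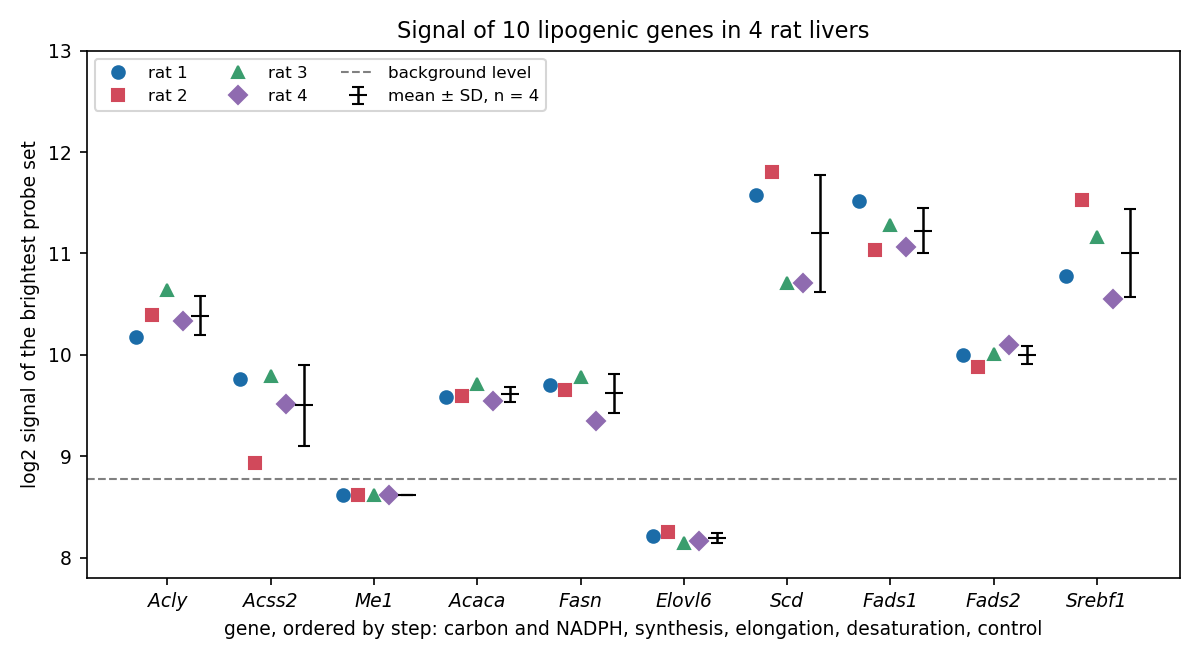
Log2 signal of the brightest probe set of each of the 10 genes (vertical axis) in each of the 4 rats (symbols), with the mean ± SD over 4 rats at the right of each gene and the background level of 8.78 as a dashed line. Scd and Srebf1 spread most, the 4 points of Me1 coincide, and rat 2 stands below the other rats for Acss2.

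Genes that supply acetyl-CoA and NADPH came first in the pathway. Acly, ATP citrate lyase, which cleaves citrate to acetyl-CoA, had log2 signals of 10.18, 10.39, 10.64 and 10.33 in rats 1 to 4. Its mean was 10.39 ± 0.19 (SD, n = 4), with rat 3 highest and rat 1 lowest, 1.38-fold apart. Without rat 3 the SD of Acly was 0.11.

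Acss2, the cytosolic synthetase that makes acetyl-CoA from acetate, had 9.76, 8.93, 9.79 and 9.52, a mean of 9.50 ± 0.40 (SD, n = 4). Rat 2 lay below the other rats and rat 3 was 1.81-fold above it. The spread rested on rat 2, since the SD was 0.15 without it.

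Me1, the cytosolic malic enzyme that yields NADPH, had 8.61 in every rat with its brighter probe set, which was flat. The dimmer probe set of Me1 had 7.78, 7.73, 7.83 and 7.71. Neither exceeded the background level, so no statement on Me1 between rats can be made from these values.

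Among the enzymes of chain building, the SD of Acaca exceeded that of 53.5% of the 2064 named genes above background and not flat, and that of Fasn 86.9%. Acaca, acetyl-CoA carboxylase 1, which commits acetyl-CoA to fatty acid synthesis, had 9.58, 9.59, 9.72 and 9.55, a mean of 9.61 ± 0.07 (SD, n = 4). Its other probe set was flat at 8.31, below background. Rat 3 was highest for Acaca and the other rats lay close together, with an SD of 0.0235 without it.

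Fasn, fatty acid synthase, had 9.70, 9.66, 9.78 and 9.35 with its brighter probe set, a mean of 9.62 ± 0.19 (SD, n = 4). The other Fasn probe set had 9.17, 9.22, 9.30 and 8.94. Both had rat 3 highest and rat 4 lowest, with 1.36-fold and 1.28-fold between them. Without rat 4 the SD of Fasn was 0.065, so the lower signal of that rat made up most of the spread.

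Elovl6, the elongase that extends palmitate to stearate, had 8.21, 8.25, 8.14 and 8.17, a mean of 8.19 ± 0.05 (SD, n = 4). All 4 values lay below background, and the mean also lay below the level of 8.23 set without Myh1.

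Desaturases held the widest difference among the members. Scd, stearoyl-CoA desaturase, which makes oleate from stearate, had 11.58, 11.80, 10.71 and 10.71, a mean of 11.20 ± 0.58 (SD, n = 4). Rats 1 and 2 stood apart from rats 3 and 4, and rat 2 was 2.14-fold above rat 3. The SD of Scd exceeded that of 98.9% of the 2064 named genes that were above background and not flat. Scd2, its neighbour on chromosome 1 with 1 protein-coding gene between them, had 3 probe sets, all flat and below background at 7.09 to 8.07.

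Fads1, the delta-5 desaturase of polyunsaturated fatty acid synthesis, had 11.51, 11.03, 11.28 and 11.07, a mean of 11.23 ± 0.22 (SD, n = 4). Rat 1 was highest and rat 2 lowest, 1.40-fold apart, and without rat 1 the SD was 0.14. Fads2, the delta-6 desaturase that acts before it, is the next protein-coding gene on chromosome 1. Its signals were 9.99, 9.88, 10.01 and 10.10, a mean of 10.00 ± 0.09 (SD, n = 4). Rat 2 was lowest for both neighbours, but the highest rat was rat 1 for Fads1 and rat 4 for Fads2. Without rat 2 the SD of Fads2 was 0.054.

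Srebf1, which encodes SREBP-1, was measured by 2 probe sets. The brighter had 10.77, 11.53, 11.17 and 10.56, a mean of 11.01 ± 0.43 (SD, n = 4), and the other 10.05, 10.74, 10.58 and 9.89, a mean of 10.31 ± 0.41 (SD, n = 4). Both placed the rats in the same order, rat 4 lowest, then rats 1, 3 and 2, with 1.96-fold and 1.81-fold between rats 2 and 4. These values do not separate the 2 annotated starts of Srebf1, since the position of the probes within the transcript is not given in the sources used here.

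**Figure D2:**
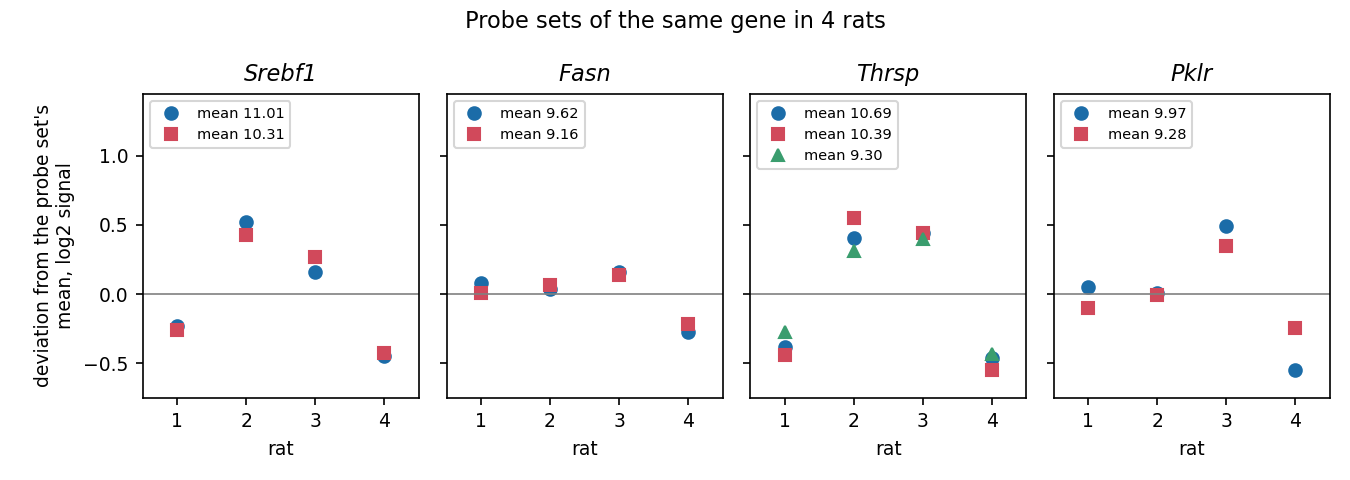
Deviation of each rat (horizontal axis, 1 array each) from the mean of the probe set (vertical axis, log2 signal) for Srebf1, Fasn, Thrsp and Pklr. These are some of the genes with several probe sets above background, and symbols stand for probe sets with the mean signal given. Among those not shown, the 2 probe sets of Elovl5 had the same sign in 3 rats and those of Gpd1 in 2. The 2 probe sets of Srebf1 and of Fasn and the 3 of Thrsp keep the same sign in every rat, and those of Pklr differ in sign in rats 1 and 2.

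The spread between rats was set against that of other genes. The median SD of the 10 members was 0.193 log2 units, against 0.0224 for all named genes. For the 8 members above background it was 0.208, against 0.0443 for all named genes above background and 0.0678 for those that were also not flat. A highest rat at least 1.5-fold over the lowest was seen for 3 of these 8 members, Scd, Srebf1 and Acss2, against 5.37% of all named genes above background. The members were chosen with earlier results of these data known, so these counts describe them and do not test them.

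**Figure D3:**
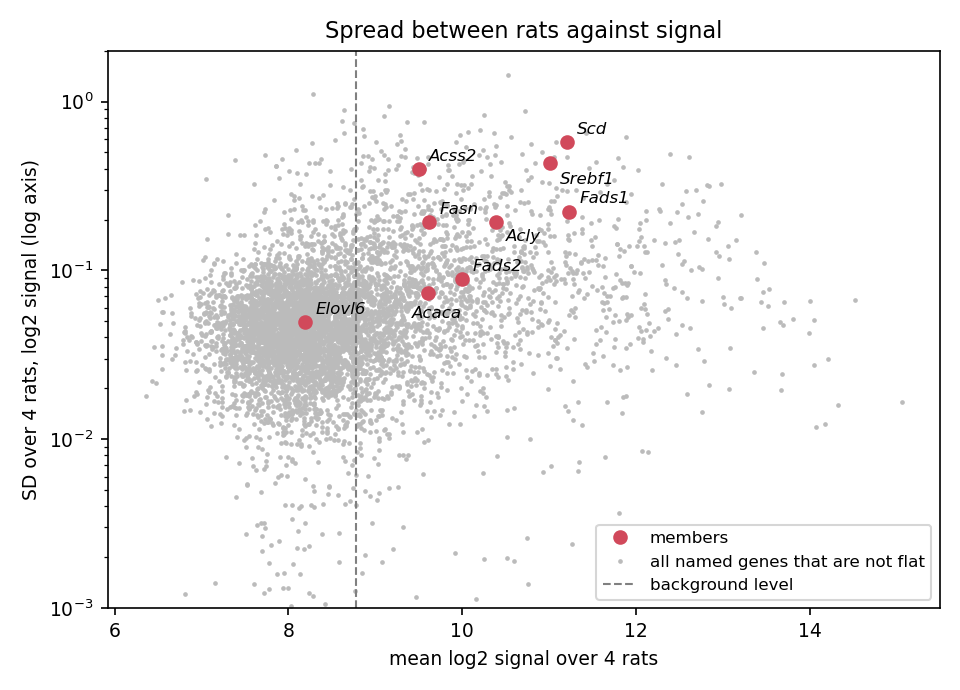
SD over 4 rats (vertical log axis, log2 signal) against mean log2 signal (horizontal axis) for the 9 members whose brightest probe set was not flat (labelled points) and for all named genes that were not flat (grey points). Scd, Srebf1 and Acss2 lie near the upper edge of the cloud, and Acaca, Fads2 and Elovl6 lie within it.

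An F test of the residual variance in limma, with Benjamini-Hochberg adjustment over 8949 probe sets that were not flat, called 0% of them variable between rats and 0 of the members. At an unadjusted p under 0.05 it had 435 probe sets, or 4.86%, and 3 of the 9 members with a brightest probe set that was not flat: Scd, Srebf1 and Acss2. This count was 2 without rat 2 or among probe sets above background alone, and 0 with flat probe sets included. The smallest adjusted p among members was 0.828 in limma. With 4 arrays, the test had 3 degrees of freedom against a prior of 2.51, so a missed threshold says little.

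The members did not rank the rats alike. With their brightest probe sets, the 8 members above background gave 8 different orders of the 4 rats. Each possible order was held by only 1.89% to 8.19% of named genes above background and not flat, so different orders say little about the members. The other Fasn probe set had the order of Acaca, and rats 3 and 4 were nearly tied for Scd, both at 10.71. The highest signal was in rat 3 for 4 of the 8 members, Acly, Acss2, Acaca and Fasn, against 36.4% of named genes above background and not flat. The lowest was in rat 2 for 3 members, Acss2, Fads1 and Fads2, against 32.3%, and in rat 4 for 3, Acaca, Fasn and Srebf1, against 20.8%. Median deviations from the mean of the 4 rats were 0.04, -0.01, 0.13 and -0.11 in rats 1 to 4 for the members, against -0.005, -0.011, 0.018 and -0.0004 for all such genes. These medians moved when 1 array was left out. Rat 1 was at 0.0197 without rat 2, 0.0721 without rat 3 and 0.011 without rat 4. Rat 3 was at 0.0593 without rat 4, rat 4 at -0.197 without rat 2, and rat 2 between -0.0484 and 0.0527. The median of rat 2 was set by its middle members, Acaca (-0.017) and Acly (0.0034). Members further out lay on both sides, Scd 0.60 and Srebf1 0.52 above their means, and Acss2 0.57 below (-0.57).

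**Figure D4:**
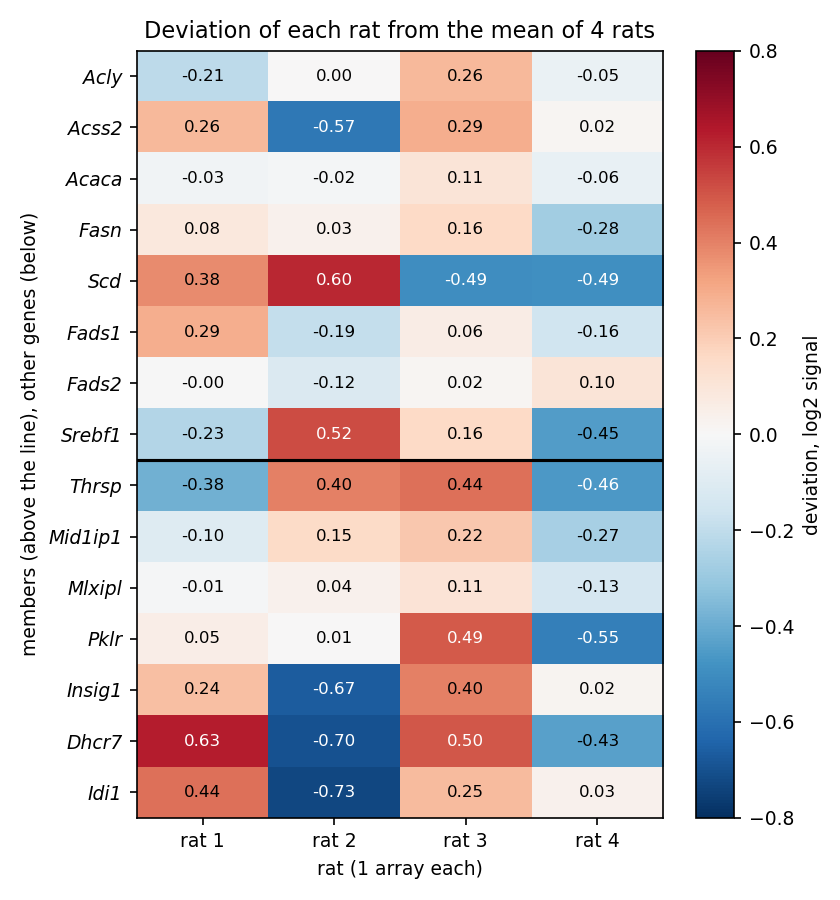
Deviation of each rat (columns) from the mean of 4 rats in log2 signal (colour and printed values) for the 8 members above background (above the line) and for other genes of lipid synthesis and its control (below). Rat 2 is red for Scd, Srebf1 and Thrsp and blue for Acss2, Insig1, Dhcr7 and Idi1.

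Other genes of the pathway came from 5 lists of 51 genes, of which 46 were measured. Above background were 33 of these 46, against 27.3% of all named genes. Of these 33, 4 had a highest rat at least 1.5-fold over the lowest, against 5.37% of all named genes above background: Pklr, Acsl5, Insig1 and Thrsp. The limma test called 0 of the 46 at an adjusted p under 0.05. Their median SD was 0.0562 over all 46, against 0.0224 for all named genes. Above background it was 0.0725, against 0.0443, and 0.0896 against 0.0678 for those that were also not flat.

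Among genes that supply carbon and NADPH, 4 of 4 were above background. Pklr, the liver pyruvate kinase and a ChREBP target, had 10.02, 9.97, 10.46 and 9.42, a mean of 9.97 ± 0.43 (SD, n = 4). Rat 3 was highest and rat 4 lowest, as for Fasn and Acaca, and a second Pklr probe set had the same extremes at 9.63 and 9.03. Idh1, a cytosolic source of NADPH, and Slc25a1, the mitochondrial citrate carrier, had means of 11.85 ± 0.02 and 10.54 ± 0.06 (SD, n = 4 each). Pgd, of the pentose phosphate pathway, was at 9.48 ± 0.07 (SD, n = 4).

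Elongation and further desaturation genes were above background in 5 of 8 cases. Elovl5, the elongase of polyunsaturated chains, had 12.05, 11.98, 11.90 and 11.73 with its brighter probe set, a mean of 11.91 ± 0.14 (SD, n = 4). The other Elovl5 probe set, at 10.23, had rat 2 highest and not rat 1. Hsd17b12, the ketoacyl reductase of the elongation cycle, was at 10.11 ± 0.12 (SD, n = 4). Acacb, the carboxylase isoform at the mitochondrion, was below background at 7.93.

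For fatty acid activation and binding, 6 of 7 genes were above background. Acsl5, an acyl-CoA synthetase, had 10.53, 11.13, 10.77 and 11.25, a mean of 10.92 ± 0.33 (SD, n = 4), with rats 2 and 4 above rats 1 and 3. Fabp1, the liver fatty acid-binding protein, was flat at 13.08, and so was the brighter probe set of Acsl1, another acyl-CoA synthetase, at 12.21. The other Acsl1 probe set was not flat, with 11.96, 11.92, 12.09 and 12.04 in rats 1 to 4. Mlycd, which breaks down malonyl-CoA, was at 9.91 ± 0.11 (SD, n = 4).

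In glycerolipid assembly, 4 of 7 genes were above background. Dgat2, which adds the last acyl chain of triglyceride, was flat at 11.58, and Gpd1, which makes glycerol 3-phosphate, was at 11.05 ± 0.09 (SD, n = 4). Agpat2, an acyltransferase of phosphatidic acid synthesis, was at 9.44 ± 0.18 (SD, n = 4).

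Regulators were above background for 14 of 20 genes. Thrsp, the thyroid hormone-responsive Spot 14 gene of lipogenic tissue, had 10.31, 11.09, 11.13 and 10.23 with its brightest probe set, a mean of 10.69 ± 0.49 (SD, n = 4). Rats 2 and 3 lay above rats 1 and 4 with all 3 Thrsp probe sets, as with both Srebf1 probe sets. Mid1ip1, which encodes a partner protein of Spot 14, had 9.44, 9.69, 9.75 and 9.27, again with rats 2 and 3 above rats 1 and 4.

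Mlxipl, encoding ChREBP, had 8.78, 8.83, 8.90 and 8.66, a mean of 8.79 ± 0.10 (SD, n = 4) and barely above the level. Nr1h3, the liver X receptor alpha that activates Srebf1, was at 9.33 ± 0.09, its relative Nr1h2 at 8.80 ± 0.05 and their partner Rxra at 9.21 ± 0.06 (SD, n = 4 each). None of these receptor genes reached 1.5-fold between rats, which only 5.37% of all named genes above background did. The part of these receptors in the Srebf1 result was not tested.

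Insig1, which holds SREBP precursors in the endoplasmic reticulum, had 10.52, 9.62, 10.68 and 10.30, a mean of 10.28 ± 0.47 (SD, n = 4). Rat 2 was lowest and rat 3 highest, in the same order as Acss2. Its relative Insig2 was at 11.06 ± 0.08, the escort protein gene Scap at 9.25 ± 0.06 and the protease gene Mbtps1 at 8.79 ± 0.02 (SD, n = 4 each). Srebf2, encoding the sterol-directed SREBP-2, had 9.66, 9.72, 10.02 and 9.90, a mean of 9.83 ± 0.16 (SD, n = 4). The kinase gene Prkaa2, a subunit of AMP-activated kinase, was at 9.91 ± 0.07 and Akt2 of insulin signalling at 8.95 ± 0.06 (SD, n = 4 each). Usf2 was flat at 9.62. Usf1, Irs1, Irs2, Insr, Prkaa1 and Mbtps2 were below background.

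Sterol synthesis and fatty acid oxidation were set beside the members, without a test, since 1 group of rats offers none. Rat 2 was lowest for 12 of 12 sterol genes and for 12 of 14 oxidation genes above background and not flat, and for 3 of 8 members, against 32.3% of all such genes. Median deviations in rat 2 were -0.01 for the members, -0.40 for sterol genes and -0.14 for oxidation genes. Dhcr7, the last reductase of cholesterol synthesis, had 10.70, 9.38, 10.57 and 9.64, and Idi1, an isomerase early in the pathway, 9.51, 8.34, 9.32 and 9.10. Among oxidation genes Eci1, an enoyl-CoA isomerase, had 10.75, 9.75, 10.77 and 10.26, and Decr1, a dienoyl-CoA reductase, 10.66, 10.13, 10.77 and 10.69. Scd and Srebf1 had their highest signal in rat 2, where these 4 genes had their lowest.

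Markers of other cells were compared with the most variable members. Kupffer cell markers above background and not flat had median deviations of -0.16, 0.16, 0.08 and -0.03 in rats 1 to 4, with rats 2 and 3 above rats 1 and 4 as for Srebf1. Of the 4 markers behind these medians, the complement gene C1qb went against this, with 10.02, 10.05, 9.94 and 9.97. Over all 5 measured Kupffer markers the summed linear signal was lowest in rat 1 (4346) and highest in rat 2 (5388). The part of Kupffer cell markers in the Srebf1 result was not tested.

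The stellate cell marker Col3a1, a fibrillar collagen gene and the 1 of 8 above background, had 10.80, 11.15, 10.23 and 11.15. Rat 2 was highest and rat 3 lowest, the same extremes as Scd, but rat 4 was close to rat 2 for Col3a1 and low for Scd. Over all 8 measured stellate markers the summed linear signal was 3876, 4632, 3091 and 4663 in rats 1 to 4. The endothelial marker Eng, a coreceptor gene, had 9.59, 9.39, 9.87 and 9.41, in the same order of rats as Acss2. No other measured endothelial marker shared this order: Kdr was flat, Lyve1 and Pecam1 were highest in rat 4, and Vwf in rat 2. Over the 5 measured endothelial markers the summed linear signal was 2417, 2319, 2625 and 2387. The part of stellate and endothelial markers in the Scd and Acss2 results was not tested.

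The blood marker Hbb, a globin gene, was 1.88-fold higher in rat 1 than in rat 4, and for the 4 measured blood markers the summed linear signal ran between 2784 in rat 4 and 4628 in rat 1. Neither Scd nor Srebf1 shared this order. Fads1 was also highest in rat 1, with deviations of 0.29, -0.19, 0.06 and -0.16 in rats 1 to 4. Those of Hbb had the same signs, at 0.46, -0.19, 0.19 and -0.45, but Fads1 was lowest in rat 2 and Hbb in rat 4. Acaca, Fasn and Srebf1 were lowest in rat 4 too, and none of them was highest in rat 1. The part of blood markers in the Fads1 and Fasn results was not tested. Hepatocyte markers above background had median deviations between -0.02 and 0.01, but 2 of the 8 exceeded 1.5-fold between rats. Tat, a hormone-responsive aminotransferase gene, had 9.52, 10.53, 11.10 and 10.30, or 2.99-fold, more than any member. Apoa1, the main protein of high-density lipoprotein, had 12.34, 12.98, 13.03 and 12.92. Both had the same order of rats as Acly, with rat 1 lowest, and the mean deviation of the hepatocyte list in rat 1 was -0.164. Their part in the Acly result was not tested.

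The 5 named genes whose deviations lay nearest to the mean profile of the 8 members, among 2056 others, were Cyp2c11, Rraga, Ldha, Fkbp4 and Entpd5. Their root mean square differences from it ran between 0.034 and 0.041 log2 units over the 4 rats. That profile itself had a root mean square of only 0.1, since members with opposite deviations cancel in it, and 92 genes lay within double the distance of Cyp2c11. Nearness over 4 rats describes these arrays and nothing beyond them.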

How the data were processed

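Liver RNA of 4 rats was measured on 1 array each, and all formed 1 group. The authors' deposited values are log2 signals for 15923 probe sets, the lowest 5.98 and the highest 15.07. The median was 8.11 on each array and the upper quartile 8.69 or 8.70, so signals were already normalised between arrays. R 2.4.1, affy 1.12.2, GCRMA and RMA are named in the submitters' processing notes with no role or order, so which of them gave the values is unknown here. The labels name the array RAE230-2, and the file headers RAE230A. Per the file headers, all arrays shared 1 lot, 1 scan day and 1 fluidics station and each had its own module, so no batch could be fitted and module and rat cannot be told apart.

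Probe sets were named where the platform annotation gave 1 symbol (12789), updated by gene number (12754 matched) to GRCr8. Control probe sets (57) were left out of the test. Each gene stood by its brightest probe set. The F test compared the residual variance of each probe set that was not flat with a robust, trended prior (limma 3.58.1, R 4.3.3), at an adjusted p of 0.05, one-sided for large variances, and was tested on simulated data. Descriptions used Python 3.11.15, numpy 2.4.6 and pandas 2.3.3, and figures matplotlib 3.10.9. The list of genes behind the background level was written for this work. Named were all members, all measured regulators, the 2 brightest and the 2 most variable genes of each pathway list, the 2 most variable of each comparison list, and the 5 genes nearest the members' mean profile. Acacb, Scd2 and the cell type markers fall outside this rule and were named after their values were seen. Members, lists and motifs were chosen with earlier results of these data known. Alternatives covered the background level, the probe set per gene, scaling, the prior, flat probe sets, the measure of spread and leaving out each rat. The number of arrays limits the precision. The differences between rats in this report have no repeat array.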

Additional observations from a re-analysis of the deposited data

Results flagged for a closer look

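A single rat stood apart from the rest in 2 of 60 sets of 4 values examined, and by chance about 5% of sets would. The sets were the probe sets of the members, the genes named by rule and the medians of the gene lists, without flat ones. Neither was a member. Decr1, of fatty acid oxidation, had a log2 signal of 10.13 in rat 2, against 10.66 to 10.77 in the other rats. Slc25a1, the citrate carrier, had 10.63 in rat 1, against 10.50 to 10.52 in the others. Because gaps are scaled to each gene's own range, a gap as small as that of Slc25a1 qualifies. Among listed genes above background but outside these sets, the ratio of gap to range also passed the limit for Msmo1 (0.913) and Fdft1 (0.896), both of sterol synthesis and low in rat 2. It did so as well for the oxidation gene Hadh, high in rat 2 (0.911), and the hepatocyte markers Cps1, high in rat 3 (0.882), and Apoa1, low in rat 1 (0.848). The dimmer probe set of Elovl5, high in rat 2, also passed the limit (0.835). These were picked after their values were seen.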

How the results depend on the processing

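With the background at the 98th percentile (10.57), 3 of 10 members and 11 of 46 pathway genes were above it, the median SD of the 3 members was 0.430, and their median deviations were 0.29 in rat 1, 0.52 in rat 2 (sign turned) and -0.45 in rat 4. Fewer members enter there by construction. The median deviation in rat 2, near 0, also changed sign without rat 3 (range -0.0484 to 0.0527 over leaving out each rat) and with the mean over members (0.0338), and the cause was not tested. The range over rats in place of the SD had a median of 0.452, against 0.0501 for all named genes, since a range exceeds an SD. The other 76 values of main results kept their sign, but the counts and SDs among them cannot change sign. At the 90th percentile and without Myh1 the same members entered, so their median deviations equalled the main ones by construction. Below the 98th percentile, the median deviations ran over 0.00493 (no suffixed probe sets) to 0.0721 in rat 1, 0.0593 to 0.133 in rat 3 and -0.197 to -0.0827 in rat 4. By limma, 0 members were called variable under all 10 alternatives, where 84 to 2262 probe sets had an unadjusted p below 0.05. The lowest adjusted p of any member ranged over 0.214 to 0.943. Without Myh1, or at the 90th percentile, 9 members were above background, and the share of all named genes above it was 51.2% or 51.6%, against 4.89% at the 98th percentile and 50.7% without probe sets of suffixes s, x and a. Taking medians over probe sets, Acaca was at 8.96, Fasn at 9.39 and Me1 at 8.19. Without suffixed probe sets Fasn was at 9.16. No paired analysis was possible because the 4 rats form 1 group. Without a second array per rat, the array's own error cannot be separated from the difference between animals.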

Other observations

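The nearest genes to single members were looked up after their values were seen, by the root mean square difference of deviations over the 4 rats among 2063 named genes above background and not flat. Fasn lay nearest to Hnf4a, a nuclear receptor of hepatocyte identity, at 0.018 log2 units, with signals of 9.75, 9.68, 9.86 and 9.38 in rats 1 to 4. Lactate dehydrogenase A (Ldha) and the helicase gene Ddx5 followed at 0.036 each. Acss2 lay nearest to Insig1 at 0.075. Obp3 at 0.091, Cyp3a18 at 0.092, the sterol synthesis gene Fdft1 at 0.101 and the oxidation gene Eci1 at 0.107 followed. Fads1 lay nearest to Lrg1 at 0.032, followed by Csrp1 and Id2 at 0.043 each. Cyp7a1, a hydroxylase that starts bile acid formation, was the fourth at 0.048, with 10.32, 9.77, 10.10 and 9.94.

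Srebf1 lay nearest to the interferon-induced genes Usp18, at 0.128, and Ifi27, at 0.155, followed by the Kupffer cell receptor Clec4f at 0.165 and Thrsp at 0.169. Usp18 had 8.60, 9.19, 9.06 and 8.57. Scd had no gene close to it: the nearest, microsomal epoxide hydrolase (Ephx1) with 12.64, 13.21, 12.08 and 12.49, was 0.256 away, against a root mean square of 0.499 for the Scd deviations themselves. Within double the nearest distance lay 1 gene for Fasn, 11 for Fads1, 16 for Acss2, 26 for Srebf1 and 1017 for Scd. These distances describe the 4 arrays.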
